A study of Rattus norvegicus with 6 samples.

Results

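Fragments of the 4 eukaryotic ribosomal RNA families were examined in small RNA sequencing of rat sertoli cells, the somatic cells that support germ cells in the seminiferous tubule. The families were taken by identifier from the deposited table, namely RF00001 (5S), RF00002 (5.8S), RF01960 (eukaryotic small subunit) and RF02543 (eukaryotic large subunit), and all 4 were found among its 2359 named small RNAs, of which 10 are of the ribosomal RNA class. Primary sertoli cells were isolated from testes of Sprague-Dawley rats aged 5 to 10 days, grown in medium with fetal bovine serum and collected after 24 h. The 3 control samples received no 4-nonylphenol (4-NP), an alkylphenol with estrogen-like action, and the 3 treated samples received 0.5 mM 4-NP. The sources do not say whether the 3 samples of a group came from separate animals or cultures, so the p-values measure the spread between these samples, which may be technical.

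Ribosomal RNA is the RNA core of the ribosome. In animals the small subunit carries 18S ribosomal RNA, and the large subunit carries 28S, 5.8S and 5S ribosomal RNA. The 18S, 5.8S and 28S molecules are cut from a single precursor that RNA polymerase I makes in the nucleolus, whereas 5S ribosomal RNA is made by RNA polymerase III from separate genes. All 4 intact molecules are longer than the band of 18 to 30 nt that was cut from the gel before library preparation, so the reads counted here are fragments. A count therefore measures short pieces of a ribosomal RNA and not the amount of ribosomes, and fewer cells of one type and less RNA per cell cannot be told apart in such bulk samples.

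Each sample had 20023200 to 23426742 reads on mature miRNAs, which was 81.9 to 85.2% of its counted reads. Levels are given as CPM, the count per 1000000 mature miRNA reads of the same sample. They are not divided by length, so the order of the families is an order of read numbers and not of molecules. The sertoli-enriched miR-202, both arms summed, was at 807 to 1195 CPM in the controls and at 698 to 796 CPM after 4-NP, and neither of its 2 arms passed the test. Some markers of other cells moved with the treatment. For comparison, 12.3% of all 1285 tested small RNAs were higher and 9.42% lower at an adjusted p under 0.05 in edgeR. Of the miRNAs listed for germ cells 4 of 5 tested were higher, with a summed level of 150 to 167 CPM in the controls and 162 to 197 CPM after 4-NP. Their precursor families went the other way, though neither passed. On the log2 scale mir-449 (RF00711) was at -2.61 (SE 0.93, edgeR adjusted p = 0.0971) and mir-34 (RF00456) at -1.05 (SE 1.13, edgeR adjusted p = 0.534). Both arms of the endothelial miR-126a were lower, at 6325 to 7615 against 3234 to 3805 CPM, and so were 2 of the 4 myoid or smooth muscle miRNAs, whose list went from 120596 to 136273 CPM in the controls to 88389 to 96697 CPM. The erythroid list had 1 of 2 higher, at 11.0 to 40.7 CPM in the controls against 59.3 to 631 CPM. Their part in the ribosomal values was not tested. None of the myeloid, liver or striated muscle miRNAs passed in either direction, in 3, 1 and 3 tested. The liver miR-122 was at 0.0427, 0.130 and 0.538 CPM in controls 1, 2 and 3. In 4-NP samples 1, 2 and 3 it was at 0.271, 21.7 and 1.42 CPM, so 4-NP sample 2 stood far above the others. Its part in the ribosomal values was not tested either.

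All 4 families had more reads after 4-NP. Together they were at 2386, 3044 and 2998 CPM in controls 1, 2 and 3 and at 6913, 5113 and 6759 CPM in 4-NP samples 1, 2 and 3, with means of 2809 ± 367 and 6262 ± 998 CPM (SD, n = 3 each). The lowest treated sample was 1.68 times the highest control. As a share of all counted reads the 4 families went from 0.237% ± 0.0292 to 0.523% ± 0.0831 (SD, n = 3 each). The mean log2 difference in CPM was 1.15 (standard error, SE, 0.18), with p = 0.1 in an exact two-sided permutation test, the smallest p that 3 against 3 samples allow.

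**Figure D1:**
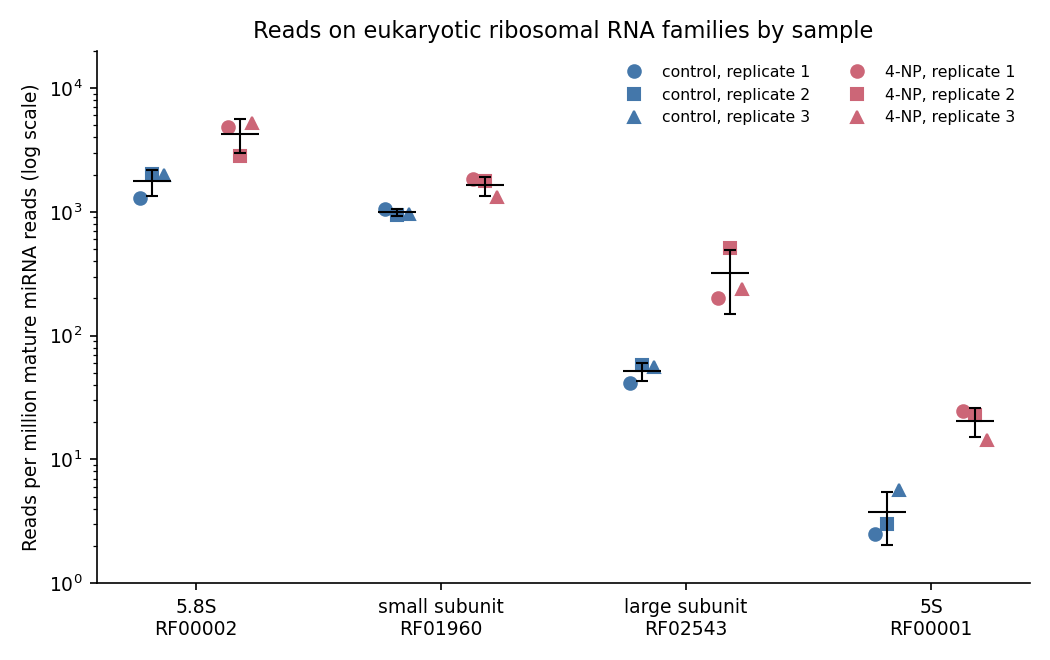
CPM relative to mature miRNA reads (log axis) on each of the 4 families in every sample, with controls in blue and 4-NP samples in red. Bars give the mean ± SD of 3 samples. In each family the 3 treated samples lie above the 3 controls, with means of 51.7 and 318 CPM for the large subunit and 987 and 1633 CPM for the small subunit.

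The large subunit family had the highest fitted change, followed closely by 5S, then 5.8S and the small subunit. In edgeR's quasi-likelihood test across 1285 small RNAs, each of the 4 was higher at an adjusted p under 0.05. Across the same small RNAs 12.3% were higher and 9.42% were lower at that threshold, and among the 736 that are not mature miRNAs 15.2% were higher. In each family every treated sample lay above every control, which was also so for 35.2% of those 736. The median log2 fold change of the 736 was 0.48 on this scaling, and it was 0.05 when TMM factors were computed from them. Changes of the families are therefore also given as their distance from that median. The split of calls over all small RNAs depended on the scaling as well, with 56.6% of the calls higher here and 27.0% with those factors.

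RF02543, the large subunit family, holds the 28S ribosomal RNA, which forms the catalytic centre of the ribosome. It had 973, 1328 and 1253 reads in controls 1, 2 and 3 and 4489, 10273 and 5223 reads in 4-NP samples 1, 2 and 3. In CPM these were 41.5, 57.5 and 56.2 against 203, 513 and 239. The groups were well apart, since the lowest treated sample was 3.53 times the highest control, and 4-NP sample 2 stood above the other two treated samples. The mean rose from 51.7 ± 8.87 to 318 ± 170 CPM (SD, n = 3 each). The fitted log2 change was 2.62 (SE 0.40, edgeR adjusted p = 0.00604), which was 2.14 above the median of the other small RNAs. Without 4-NP sample 2 it became 2.09 (edgeR adjusted p = 0.00345).

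RF00001, the 5S family, is the small Pol III-made RNA of the large subunit. It was the least read of the 4, with 59, 70 and 127 reads in controls 1, 2 and 3 and 546, 456 and 314 reads in 4-NP samples 1, 2 and 3. For the lowest of these counts, 59, the exact Poisson interval at 95% is 44.9 to 76.1 reads, and like all such intervals it covers counting error only. In CPM the controls were at 2.52, 3.03 and 5.70 and the treated samples at 24.7, 22.8 and 14.3. Control 3 was the highest control and 4-NP sample 3 the lowest treated sample, and these were still 2.52 times apart. The mean rose from 3.75 ± 1.71 to 20.6 ± 5.50 CPM (SD, n = 3 each). The fitted log2 change was 2.46 (SE 0.39, edgeR adjusted p = 0.00688), 1.97 above the median of the other small RNAs.

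RF00002, the 5.8S family, pairs with 28S ribosomal RNA inside the large subunit. It was the most read of the 4, with 30043, 47011 and 44149 reads in controls 1, 2 and 3 and 107568, 56386 and 113701 reads in 4-NP samples 1, 2 and 3. The controls were at 1282, 2035 and 1981 CPM and the treated samples at 4861, 2816 and 5193 CPM. Here 4-NP sample 2, the highest for the large subunit, was the lowest treated sample and only 1.38 times the highest control. The mean rose from 1766 ± 420 to 4290 ± 1287 CPM (SD, n = 3 each). The fitted log2 change was 1.28 (SE 0.29, edgeR adjusted p = 0.0225), 0.80 above the median of the other small RNAs. Omitting 1 sample at a time lost the call in 5 of 6 cases, all but the one without 4-NP sample 2, with adjusted p values up to 0.0722 in edgeR. In that fit the log2 fold change was 1.51 (edgeR adjusted p = 0.0115).

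RF01960, the small subunit family, holds the 18S ribosomal RNA, on which messenger RNA is decoded. It had the smallest change and the tightest controls, with 24814, 21895 and 21296 reads in controls 1, 2 and 3 and 40397, 35258 and 28746 reads in 4-NP samples 1, 2 and 3. The controls were at 1059, 948 and 955 CPM and the treated samples at 1825, 1761 and 1313 CPM. The lowest treated sample, 4-NP sample 3, was 1.24 times the highest control. The mean rose from 987 ± 62.2 to 1633 ± 279 CPM (SD, n = 3 each). The fitted log2 change was 0.73 (SE 0.16, edgeR adjusted p = 0.0197), 0.24 above the median of the other small RNAs. When TMM factors were taken from the 736 it was 0.31 (edgeR adjusted p = 0.281). Omission of single samples also lost the call in 5 of 6 cases, all but the one without 4-NP sample 3, with adjusted p values up to 0.0761 in edgeR. In that fit the log2 fold change was 0.86 (edgeR adjusted p = 0.00813).

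**Figure D2:**
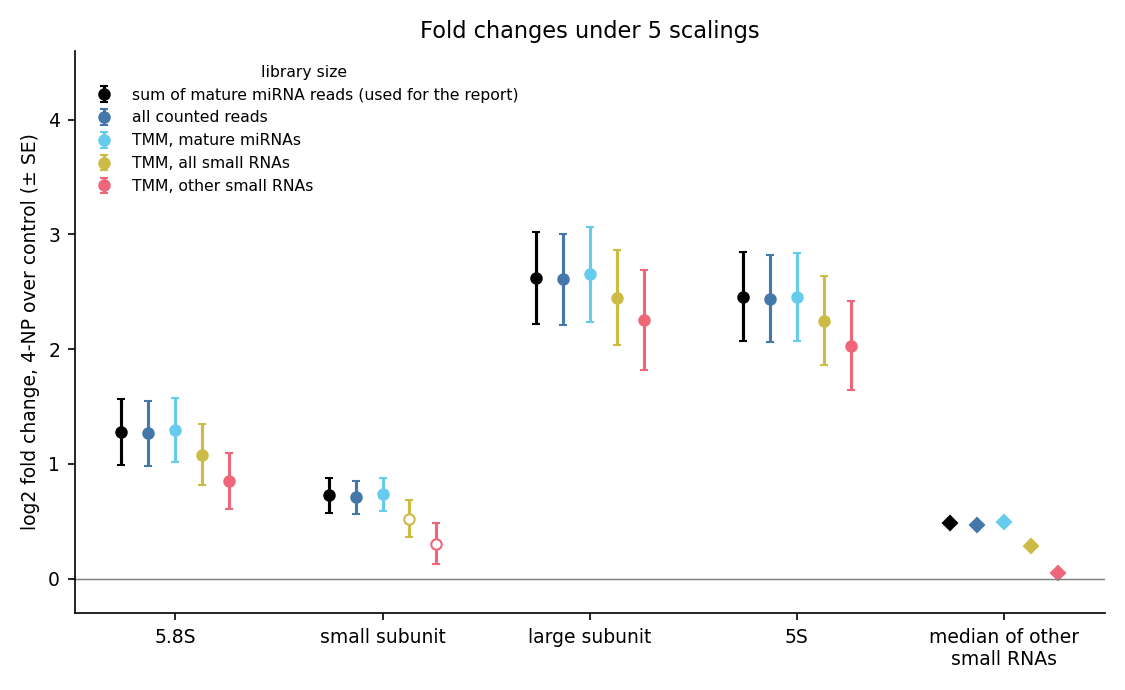
Log2 fold change ± SE of each family from edgeR under 5 choices of library size, with filled points for an adjusted p under 0.05 and diamonds for the median of the small RNAs other than mature miRNAs. The 5S, 5.8S and large subunit families stay filled throughout, and the small subunit goes from 0.73 to 0.31 as the median goes from 0.48 to 0.05.

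The make-up of the ribosomal reads within each sample needs no scaling between samples. In the controls 5.8S took 62.2% ± 7.35 of the reads on the 4 families, the small subunit 35.8% ± 7.45, the large subunit 1.83% ± 0.0817 and 5S 0.132% ± 0.0506 (SD, n = 3). After 4-NP these shares were 67.4% ± 11.2, 26.8% ± 7.51, 5.50% ± 3.94 and 0.338% ± 0.118 (SD, n = 3). The large subunit share was 1.74, 1.89 and 1.88% in controls 1, 2 and 3 and 2.93, 10.0 and 3.53% in 4-NP samples 1, 2 and 3. Its control values were nearly equal, and all treated values lay above them, with 4-NP sample 2 far above the other two. The shares of 5.8S and of the small subunit overlapped between the groups.

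**Figure D3:**
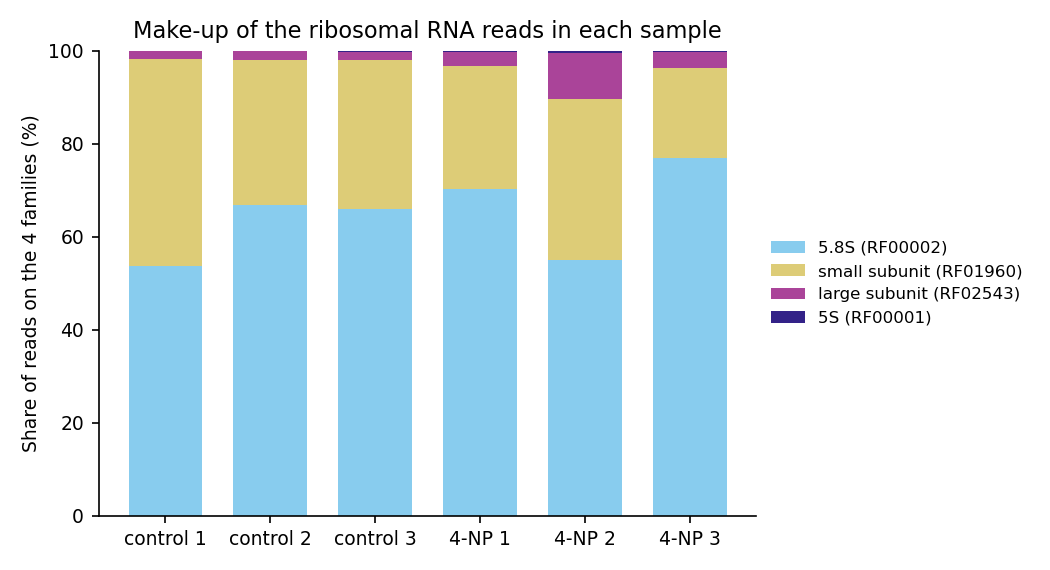
Stacked bars of the share (%) of reads on the 4 families that fell on each family, 1 bar per sample. The large subunit band widens from 1.74 to 1.89% in the controls to 2.93 to 10.0% after 4-NP, while 5.8S and the small subunit hold most reads in every sample.

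Ratios of counts within a sample compare the families directly. In the controls the large subunit had 0.0392, 0.0607 and 0.0588 reads per small subunit read, and in the 4-NP samples it had 0.111, 0.291 and 0.182. All 3 treated samples exceeded all controls, with a mean log2 difference of 1.80 (SE 0.45). The reads of 5S per small subunit read moved alike. In the controls the small subunit had 421, 313 and 168 reads per 5S read, and after 4-NP it had 74.0, 77.3 and 91.5, a mean log2 difference of -1.79 (SE 0.40) with no overlap. The 6 treated and control values of the large subunit relative to 5.8S did not overlap either, at 0.0324, 0.0282 and 0.0284 in the controls and 0.0417, 0.182 and 0.0459 after 4-NP. That mean log2 difference of 1.25 had a standard error of 0.69, and it was 0.56 without 4-NP sample 2.

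The other 3 ratios overlapped between the groups. The small subunit against 5.8S had a mean log2 difference of -0.55 (SE 0.46), and 5.8S against 5S one of -1.24 (SE 0.53). For the large subunit against 5S the mean log2 difference was 0.01 (SE 0.52), so a difference between the changes of these 2 families was not detectable with this spread. Each of the 3 ratios without overlap had p = 0.1 in an exact two-sided permutation test, which is the smallest p possible, and an adjusted p of 0.2 over the 6 pairs (exact permutation test). With 3 against 3 samples this test cannot pass 0.05, whatever the size of a difference.

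The table also holds the total reads on exons, introns, repeats and intergenic sequence, which served as a measure of other short fragments in the same libraries. Exon reads overlapped between the groups, at 23386, 25983 and 20381 CPM in the controls and 29990, 24250 and 24161 CPM after 4-NP. Their mean log2 difference was 0.17 (SE 0.14, p = 0.4 in an exact permutation test). Intron, repeat and intergenic reads were higher in all treated samples, with mean log2 differences of 0.60, 0.73 and 0.44 (SEs 0.23, 0.12 and 0.15), each with p = 0.1 in an exact permutation test. The mean log2 difference of repeat reads, 0.73, was thus near the edgeR log2 change of the small subunit family, also 0.73. These 2 values are different measures, so only their rough size can be compared.

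Relative to each total, the summed 4 ribosomal families were higher in every treated sample than in any control. Per exon read there were 0.102, 0.117 and 0.147 ribosomal reads in controls 1, 2 and 3 and 0.231, 0.211 and 0.280 in 4-NP samples 1, 2 and 3. The treated samples all lay above the controls, and the mean log2 difference was 0.98 (SE 0.20). Against intergenic reads it was 0.71 (SE 0.18), against intron reads 0.55 (SE 0.22) and against repeat reads 0.42 (SE 0.21). For introns and repeats the groups almost touched, with gaps of 0.01 and 0.07 on the log2 scale between the highest control and the lowest treated sample. All 4 comparisons had p = 0.1 in an exact two-sided permutation test, also after adjustment over the 4. With only the large and small subunit families in the sum, these differences were 0.72 against exons, 0.45 against intergenic sequence, 0.29 against introns and 0.16 against repeats. The groups then overlapped against introns (p = 0.5) and repeats (p = 0.6, exact permutation tests).

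**Figure D4:**
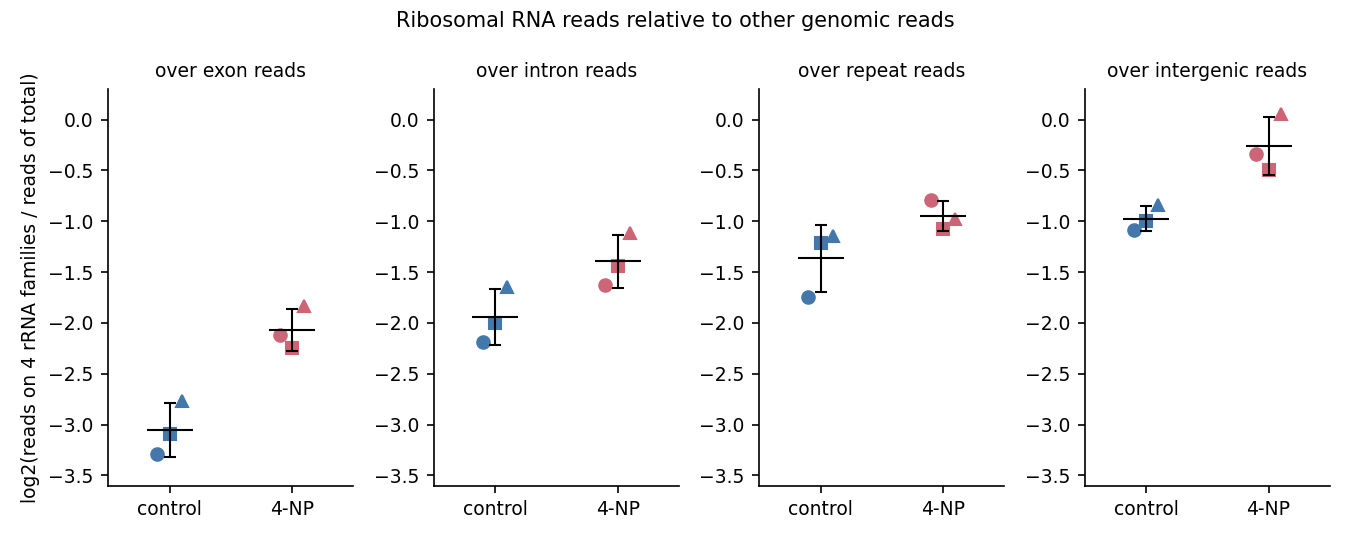
Log2 ratio of the reads on the 4 ribosomal families to the reads on exons, introns, repeats and intergenic sequence in each sample, with the mean ± SD of 3 samples in black. The groups are parted most against exons, by a mean of 0.98, and least against repeats, by 0.42.

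The table has 6 further families of ribosomal RNA, named for bacteria, archaea, microsporidia or the 23S molecule. How reads of conserved stretches were assigned among the 10 families is not given in the sources used here, and its part in the values was not tested. The 4 eukaryotic families held 99.8, 99.8 and 98.7% of all reads of the ribosomal class in controls 1, 2 and 3 and 99.5, 95.2 and 91.5% in 4-NP samples 1, 2 and 3. The 6 further families summed to 4.99, 5.84 and 38.0 CPM in the controls and to 35.7, 256 and 624 CPM after 4-NP, so control 3 exceeded 4-NP sample 1. A pair of bacterial families outside the ribosomal class, chosen after their values were seen, were also higher. Transfer-messenger RNA (RF00023), which frees stalled bacterial ribosomes, rose from 138 ± 3.12 to 422 ± 74.9 CPM (SD, n = 3 each, edgeR adjusted p = 0.00142), and its betaproteobacterial form (RF01850) from 5.49 ± 1.26 to 50.8 ± 12.8 CPM (SD, n = 3 each, edgeR adjusted p = 0.000658). The serC leader (RF00517), a bacterial RNA whose label does not name bacteria, also passed, at a low level. It went from 0.265 ± 0.225 to 2.01 ± 1.18 CPM (SD, n = 3 each, edgeR adjusted p = 0.0451). JUMPstart RNA (RF01707), likewise bacterial, was at 0.05 on the log2 scale (SE 0.55, edgeR adjusted p = 0.959). Other families outside the ribosomal class whose labels name bacteria did not pass. Pseudomonas sRNA P10 (RF01668) was at -0.94 on the log2 scale (SE 0.42, edgeR adjusted p = 0.162). Pseudomonas sRNA CrcZ (RF01675) was at 3.84 (SE 1.20, edgeR adjusted p = 0.0664). The alphaproteobacterial transfer-messenger RNA (RF01849) was at 3.32 (SE 1.00, edgeR adjusted p = 0.0612). The part of bacterial RNA in the counts of the eukaryotic families was not tested.

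Of the 6 further ribosomal families 4 were tested, 3 were higher and none was lower at an adjusted p under 0.05 in edgeR. Among the 736 small RNAs other than mature miRNAs 15.2% were higher, and among all 1285 it was 12.3%. The median log2 fold change was 4.13, beside 1.87 for the 4 eukaryotic families, 0.48 for the 736 and 0.27 for all 1285. The tested family that did not pass was the bacterial small subunit (RF00177), at 4.12 (SE 1.62, edgeR adjusted p = 0.119), and its groups overlapped. The bacterial large subunit (RF02541) counted 94, 89 and 454 reads in controls 1, 2 and 3, and 4-NP samples 1, 2 and 3 counted 566, 2943 and 7114. The 23S pseudoknot family (RF01118) had the highest fitted log2 change, 6.14 (SE 1.71, edgeR adjusted p = 0.0473). It rested on few control reads, 0, 3 and 22 in controls 1, 2 and 3. After 4-NP it had 89, 98 and 1534 reads in samples 1, 2 and 3, so 4-NP sample 3 held most of them. Within all large subunit families the eukaryotic one held 91.0, 93.3 and 73.1% of the reads in controls 1, 2 and 3 and 88.6, 77.5 and 42.1% in 4-NP samples 1, 2 and 3. For the small subunit it held at least 98.3% in the controls and 99.7, 94.5 and 85.3% after 4-NP. With the families of all organisms summed for each subunit, an alternative chosen after the values were seen, the fitted change was 2.98 (SE 0.44) for the large subunit and 0.81 (SE 0.12) for the small subunit, with adjusted p values of 0.00531 and 0.00564 in edgeR.

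RNAs that take part in making ribosomal RNA were listed for comparison. U3, U8, U13, SNORD14, SNORA73 and SNORD22 are small nucleolar RNAs, a class that mostly acts in cutting, folding or modifying the precursor, and RNase MRP is an RNA enzyme that cuts it. Of the 7, 1 was higher and none was lower at an adjusted p under 0.05 in edgeR, with a median log2 fold change of 0.67. Of the 736 small RNAs other than mature miRNAs 15.2% were higher, with a median of 0.48, so the count of this list was near that share. That 1 was RNase MRP. It counted 9, 20 and 17 reads in controls 1, 2 and 3, against 68, 32 and 82 in 4-NP samples 1, 2 and 3, and its fitted log2 change was 2.06 (SE 0.44, edgeR adjusted p = 0.0201). For U3 the fitted log2 change was 0.56 (SE 0.23, edgeR adjusted p = 0.138) and for U8 it was 0.67 (SE 0.22, edgeR adjusted p = 0.0798).

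Among 11 other structured RNAs, which included tRNA and the spliceosomal RNAs, 3 were higher and none was lower at the same threshold, with a median log2 fold change of 0.89, beside the 15.2% higher and the median of 0.48 of the 736. The 3 were tRNA at 2.04 (SE 0.39, edgeR adjusted p = 0.0145), U5 of the spliceosome at 2.48 (SE 0.68, edgeR adjusted p = 0.0450) and vault RNA, a part of the vault particle, at 5.66 (SE 0.35, edgeR adjusted p = 0.000356). Signal recognition particle RNA, which guides ribosomes to the endoplasmic reticulum, was at -0.08 on the log2 scale (SE 0.58), and 7SK RNA, a regulator of transcription elongation, at 0.12 (SE 0.26). tRNA, which carries amino acids to the ribosome, counted 6599, 10877 and 7927 reads in controls 1, 2 and 3, against 46445, 15630 and 36619 in 4-NP samples 1, 2 and 3. Its lowest treated sample was 4-NP sample 2, as for 5.8S. Y RNA, a small Pol III-made RNA bound by the Ro protein, counted 5237, 8892 and 16692 reads in controls 1, 2 and 3, against 23619, 348077 and 60002 in 4-NP samples 1, 2 and 3. The groups did not overlap, and 4-NP sample 2 was far above the others, the sample that was also highest for the large subunit. Its fitted value was 3.96 (SE 1.12, edgeR adjusted p = 0.0502).

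**Figure D5:**
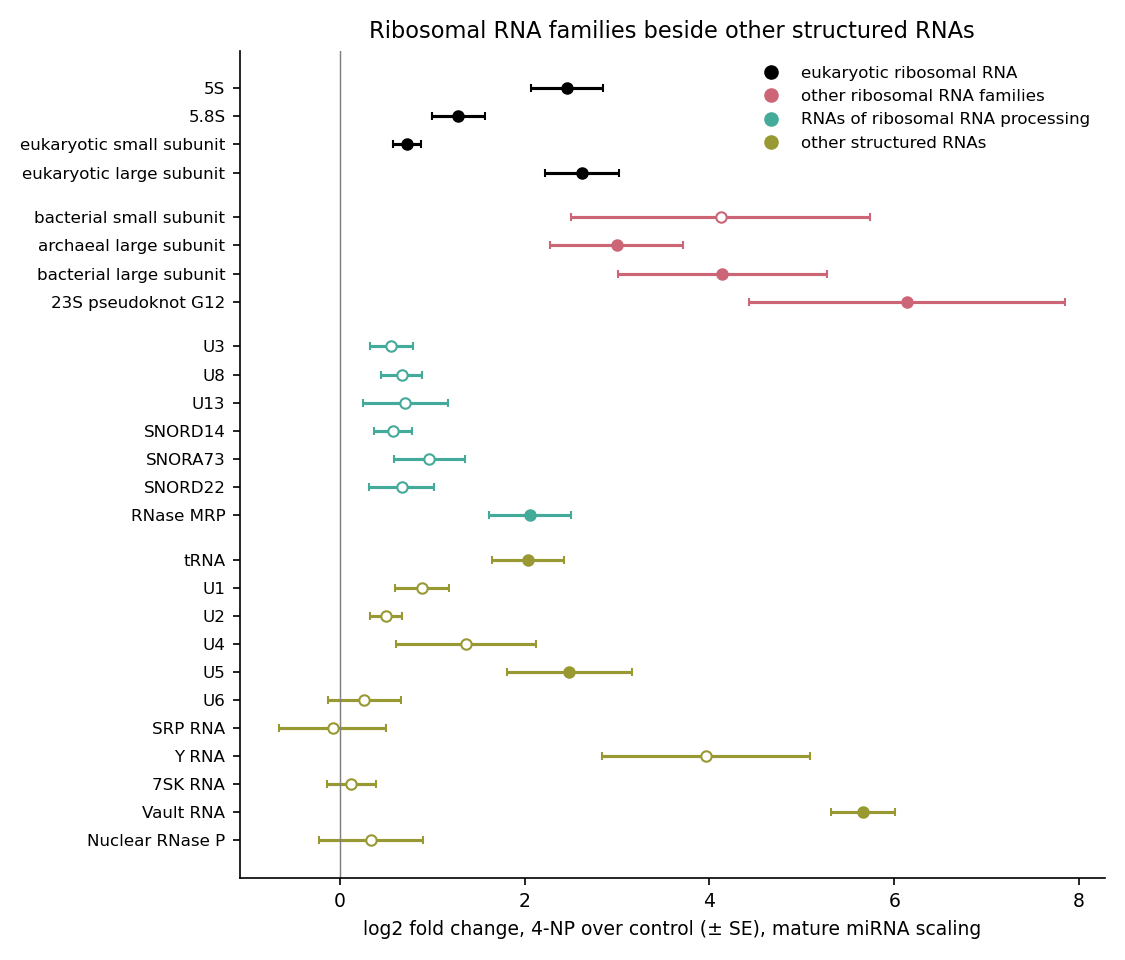
Log2 fold change ± SE from edgeR on the mature miRNA scaling for the 4 eukaryotic ribosomal families and 3 lists of other structured RNAs, filled where the adjusted p was under 0.05. The eukaryotic families run from 0.73 to 2.62, the tested families of other organisms up to 6.14 and the RNAs of ribosomal RNA processing from 0.56 to 2.06.

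The small RNAs most like each family were sought among 647 whose counts averaged 100 or more, by the root mean square difference of log2(CPM + 1) over the 6 samples after centring each profile. The small subunit profile had close neighbours, miR-3557-5p at 0.0797, miR-466c-5p at 0.104 and miR-30d-5p at 0.128. For 5.8S the nearest was the piRNA-annotated rno_piR_005598 at 0.185, followed by miR-296-3p at 0.232 and novel_pir389 at 0.243. The other 2 families had no neighbour as close. For 5S the nearest were miR-708-5p at 0.415, miR-182 at 0.421 and the mir-671 precursor family at 0.428, and for the large subunit they were miR-182 at 0.445, 5S itself at 0.501 and novel_pir381 at 0.593. Of the other ribosomal families, 5.8S ranked 47 and the small subunit 69 by closeness to the large subunit. These are descriptions over 6 samples in 2 groups, and the profiles share the scaling to mature miRNA reads.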

How the data were processed

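Small RNA of 3 control and 3 4-NP samples was analysed, grouped by the sample labels. The authors excised short RNA from gels, added adapters that carry molecular identifiers, sequenced the libraries and deposited read counts per small RNA, without normalization. The submitters' processing notes name HISAT2 and DESeq2 without a role. The genome build, the family database and the rule that assigned reads are not given in the sources used here. For each sample a further column was deposited, whose name refers to molecular identifiers. It was treated as a score deposited with no stated meaning and entered no count test.

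Of 2363 rows, 4 are totals that name no RNA. They held 3.52 to 5.91% of the counted reads per sample and stayed out of library sizes and the count test. Counts of the other 2359 were fitted with edgeR 4.0.16 in R 4.3.3 (quasi-likelihood F test, library size set to the sum of mature miRNA counts, filterByExpr defaults, common dispersion 0.154), which left 1285, and p-values were adjusted by Benjamini-Hochberg over all of them. Standard errors were computed from the fold change and F. Ratios were tested by exact permutation over samples, with 0.5 added to each count for ratios of 2 families. A count of 0 allows up to 3 reads, or 0.128 to 0.150 CPM. Members, lists and tests were chosen with earlier results of these data known. The text names the 4 families, the fixed lists, the cell type markers and, for each family, the 3 small RNAs nearest in profile. The precursor families of the germ cell markers and the bacterial families outside the ribosomal class were added after their values were seen. Counts of every replicate pair differed beyond sampling noise (chi-square per degree of freedom of 96.7 to 725), so all 6 samples were kept. Alternatives were 6 scalings, 2 filters, a fit to the other small RNAs only, DESeq2 1.42.0, limma 3.58.1, a replicate block and the omission of each sample, and, chosen after seeing the data, subunit families summed over organisms. The edgeR fit was also run on simulated counts, drawn with the common dispersion for every small RNA and the real library sizes. That run therefore cannot speak to spread that differs between small RNAs or to the choice of scaling. Figures were drawn with matplotlib 3.10.9.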

Additional observations from a re-analysis of the deposited data

Results flagged for a closer look

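The deposited table has, for each sample, a second column named for the molecular identifiers, which no comparison above uses. It does not count molecules, since it is at most 1 for all 673 known mature miRNAs and equals the read count for the 4 totals, and its meaning is not given in the sources used here. Its values were above the control level after 4-NP for all 4 ribosomal families. The mean of the treated samples was 3.22 times that of the controls for RF00001 (23 to 54 in the controls, 99 to 139 after 4-NP), 2.26 times for RF00002 (542, 674 and 789 against 1534, 1312 and 1690), 2.50 times for RF01960 (758, 776 and 760 against 1866, 1962 and 1896) and 3.25 times for RF02543 (514, 629 and 650 against 1713, 2193 and 1921). Each had p = 0.1 in an exact two-sided permutation test, the smallest that 3 against 3 samples allow. Of the 367 tested small RNAs other than mature miRNAs with a value over 1 in every sample, 22.1% had all treated samples above all controls, and the median ratio of means was 1.14.

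Reads per unit of that column differed between the families. They were 43.0 to 70.1 for 5.8S and 15.2 to 32.7 for the small subunit over the 6 samples, and 1.89 to 4.68 for the large subunit. For the small subunit they were 15.2 to 21.6 after 4-NP, below all controls, and for the large subunit they were 1.89 to 2.11 in the controls and 2.62 to 4.68 after 4-NP.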

How the results depend on the processing

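The log2 fold changes of RF00001 and RF02543 kept their direction and an adjusted p under 0.05 in all 20 alternatives (2.03 to 2.89 and 2.09 to 2.98). RF00002 and RF01960 kept their direction. Control and 4-NP samples of the same replicate number had correlations of deviations of -0.17, -0.16 and 0.09. For samples of different numbers these were -0.07 to 0.22. With 3 samples per group such values cannot decide whether the samples were paired. With a replicate block RF00002 was at 1.26 (adjusted p = 0.0862) and RF01960 at 0.71 (adjusted p = 0.0597), with 61 small RNAs higher and 68 lower in edgeR. RF01960 was at 0.52 (adjusted p = 0.0638) with TMM factors over all small RNAs, 0.52 (adjusted p = 0.0587) with RLE factors and 0.31 (adjusted p = 0.281) with TMM factors over the other small RNAs, where 82 small RNAs were higher and 222 lower against 158 and 121 here. The number of lower ones was 58 in a fit to the other small RNAs only and 76 with at least 10 counts in every sample, which both tested fewer small RNAs. Leaving out each sample gave 82 to 152 higher and 80 to 117 lower, with 82, 102, 98 and 86 higher without control 1, control 2, control 3 and 4-NP sample 3 and 80 lower without control 2, and log2 fold changes of 1.10 to 1.51 for RF00002 and 0.64 to 0.86 for RF01960. RF02543 against RF00001 had no stable direction, at -0.000917 with no pseudocount and -0.31 to 0.42 without 1 sample. The other ratios kept their direction. Apart from the construction named, the cause was not tested. Depth limits 5S most, with 59 reads in the sample with the fewest.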
